A study of Arabidopsis thaliana with 6 samples.

Results

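Small heat shock proteins of the HSP20 type were followed in 10-day-old seedlings of Arabidopsis thaliana, accession Columbia (Col-0), by 1-colour Affymetrix arrays. Of 8 small heat shock genes listed by locus or symbol, 6 have a probe set that names only that gene, out of 13286 genes with such a probe set on the array: AT2G29500, AT1G54050, AT2G19310, ATHSP22.0, AT1G53540 and AT5G37670. The remaining pair, AT1G07400 and AT1G59860, share a single probe set that names both genes, so neither has a value of its own and neither is given one here. The groups are 3 arrays of wild type and 3 of plants carrying a mutation in SET DOMAIN GROUP 2 (sdg2), a methyltransferase that places trimethylation on lysine 4 of histone H3. The mutant allele is not named in the labels. Both groups were grown alike, under light for 24 h per day at 22 °C on half-strength Murashige and Skoog plates, and the RNA is of whole seedlings for which the labels give no treatment.

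Small heat shock proteins are chaperones with a conserved alpha-crystallin domain that assemble into oligomers and hold unfolding proteins in a soluble state. They use no ATP, and refolding is handed on to the HSP70 and HSP100 machines. Plants hold an unusually large family, with classes for the cytosol, the nucleus, the endoplasmic reticulum, mitochondria, plastids and peroxisomes. Most members are nearly silent in leaves and roots at normal temperature and are switched on strongly by heat shock transcription factors. Several are also made in ripening seeds without heat.

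In sdg2 the measured members split. AT2G29500, of the cytosolic class I, rose 2.71-fold, and AT5G37670, whose protein goes to peroxisomes, rose 2.34-fold. AT1G54050, of class III, fell by 0.67 on the log2 scale, and AT2G19310, another HSP20-type gene, fell by 0.29. ATHSP22.0, for a protein of the endoplasmic reticulum, and AT1G53540, of the cytosolic class I, lay at the level of unexpressed probe sets on all 6 arrays. Thus 4 of 6 members passed an adjusted p of 0.05 in limma, 2 higher and 2 lower, where 36.6% of all 22746 probe sets passed, 19.0% higher and 17.6% lower. Both rises exceeded 2-fold, against 10.6% of all probe sets called at 2-fold or more in either direction and 5.06% called that much higher. Calls were more common among expressed probe sets: 51.3% of those at 3 or above on any array passed. Among the 13513 probe sets that name 1 gene, as those of all members do, 31.6% passed. With 6 genes, these shares were not taken to set the family apart.

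**Figure D1:**
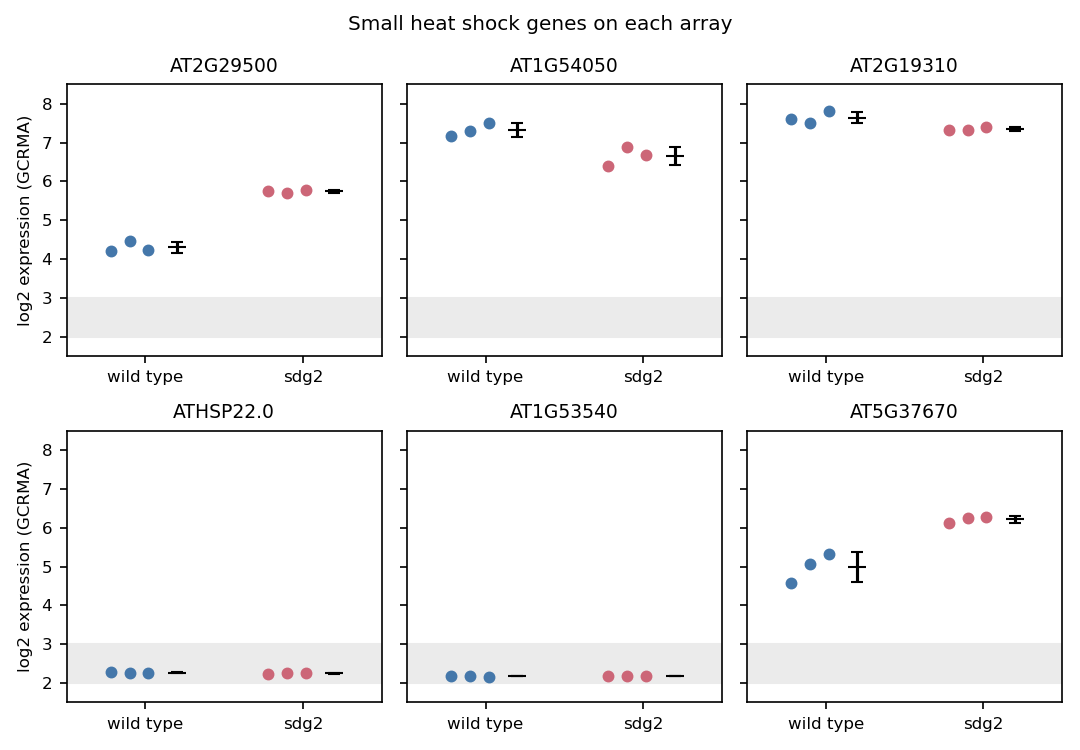
Log2 expression of the 6 small heat shock genes on each array. Points are arrays, wild type in blue and sdg2 in red, the black bar is the mean with its SD (n = 3), and the grey band marks values below 3, near the level of unexpressed probe sets. The sdg2 points lie above all wild type points for AT2G29500 and AT5G37670 and below them for AT1G54050 and AT2G19310.

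The values are on the authors' log2 scale after GCRMA, where unexpressed probe sets pile up between 2.18 and 2.20 on the 6 arrays. The array medians lay between 5.90 and 5.96, and any 2 arrays of 1 genotype had a Pearson correlation of 0.997 to 0.998 over all probe sets. SDG2 itself was not analysed here, so the labels were not checked against the mutated gene. The leaf markers RCA, LHCB4.1 and LHCB4.2, genes of photosynthesis, had group means of 13.50 to 14.28, and the root marker PYK10 had means of 13.46 in wild type and 13.13 in sdg2, so leaf and root RNA were both present.

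Among the class I genes, AT2G29500 had log2 values of 4.21, 4.47 and 4.24 on the wild type arrays and of 5.75, 5.71 and 5.78 on the sdg2 arrays. The groups did not overlap, and the lowest sdg2 array stood 1.24 above the highest wild type array. The means were 4.31 ± 0.14 (SD, n = 3) and 5.74 ± 0.03, a rise of 1.44 ± 0.08 (SE) with a 95% interval from 1.24 to 1.64 (limma, adjusted p = 0.000157). A rise at least as large was seen in 2.55% of all probe sets. The wild type level is low but lies above the level of unexpressed probe sets. The call held in the 12 alternative settings without a filter on level, with changes between 1.36 and 1.52. In the other one, a filter on dim probe sets, this gene was kept through its sdg2 arrays alone.

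AT1G53540, the other class I gene measured, gave 2.17 to 2.19 on the wild type arrays and 2.17 to 2.18 on the sdg2 arrays. All 6 values sit at the level of unexpressed probe sets and the groups overlap. Its change of 0.00 ± 0.02 (adjusted p = 0.907) therefore bears on no measured transcript. Class I genes are similar in sequence, and whether the AT2G29500 probe set also reads a relative was not tested.

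For the peroxisomal gene AT5G37670 the wild type arrays gave 4.57, 5.08 and 5.32, the widest spread of any member. The sdg2 arrays gave 6.13, 6.25 and 6.28, all above the wild type arrays by at least 0.80. The wild type SD of 0.38 was larger than that of 96.5% of all probe sets in that group, whose median SD was 0.08, while the sdg2 SD of 0.08 lay near the median. The means of 4.99 and 6.22 differ by 1.23 ± 0.20 (95% interval 0.72 to 1.74, limma adjusted p = 0.00651). Leaving out the lowest wild type array, replicate 1, gave the smallest rise, 1.02. The call held in every alternative without a filter on level. The filter on dim probe sets (at least 5 on 3 arrays) kept this gene only because its sdg2 arrays were high, since wild type replicate 1 lay below 5. A rise of this size or more was found in 3.56% of all probe sets.

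ATHSP22.0 encodes the small heat shock protein of the endoplasmic reticulum and gave 2.26 to 2.28 on the wild type arrays and 2.24 to 2.27 on the sdg2 arrays. These values overlap and lie at the level of unexpressed probe sets, with a change of -0.01 ± 0.02 (adjusted p = 0.654). No transcript of it was thus measured in either genotype.

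AT1G54050, a class III gene, lay well above background in wild type seedlings, at 7.18, 7.29 and 7.51. In sdg2 it gave 6.40, 6.88 and 6.67. The groups did not overlap, but the closest arrays of the groups were only 0.29 apart. The means were 7.33 ± 0.17 (SD, n = 3) and 6.65 ± 0.24, a difference of -0.67 ± 0.15 (95% interval -1.06 to -0.28, adjusted p = 0.0210), a 1.59-fold lower level. The sdg2 SD exceeded that of 90.4% of probe sets. The call was lost without wild type replicate 2 (adjusted p = 0.0558), wild type replicate 3 (0.0605) or sdg2 replicate 3 (0.0607), and the change stayed between -0.79 and -0.55 in all 13 alternatives.

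AT2G19310 gave 7.61, 7.52 and 7.82 in wild type and 7.33, 7.33 and 7.41 in sdg2. The sdg2 arrays lay below all wild type arrays, by 0.11 at the closest. The means of 7.65 ± 0.15 and 7.36 ± 0.04 (SD, n = 3) differ by -0.29 ± 0.08 (95% interval -0.50 to -0.08), and the adjusted p of 0.0451 is close to the threshold. The call was lost in 7 of 13 alternatives. These were trend and robust (adjusted p = 0.0505), array weights (0.0782), testing only probe sets that name 1 gene (0.0536), and leaving out wild type replicate 1 (0.0970) or sdg2 replicate 1 (0.123), 2 (0.126) or 3 (0.0843). Falls at least as large occurred in 19.7% of all probe sets.

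**Figure D2:**
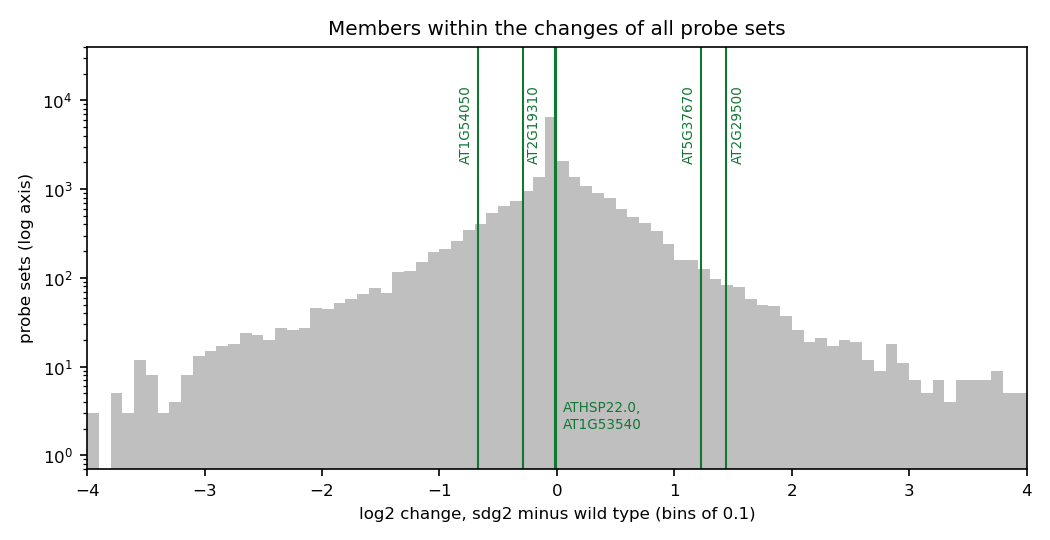
Distribution of the log2 change (sdg2 minus wild type, bins of 0.1) over all 22746 probe sets, with counts on a log axis and the 6 members as green lines. The axis leaves out 57 probe sets with changes beyond 4 in size. AT2G29500 at 1.44 and AT5G37670 at 1.23 lie in the right tail, AT1G54050 at -0.67 and AT2G19310 at -0.29 in the left shoulder, and the unexpressed pair near 0.

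In 4 of 6 members the groups did not overlap, against 48.3% of all probe sets. The median change of the members was -0.01, as was that of all probe sets. With 2 rises and 2 falls, it lies between the 2 genes at background and describes no expressed member. Over the 6 arrays AT2G29500 and AT5G37670 varied together (Pearson r = 0.94) and AT1G54050 and AT2G19310 did as well (r = 0.87). Pairs taken across these 2 sets ran against each other, with r from -0.89 to -0.70. These correlations are descriptions over 6 arrays and mostly restate the difference between the genotypes. A filter at a log2 value of 5 on at least 3 arrays was passed by 4 of the members, AT2G29500 through its sdg2 arrays alone. AT5G37670 also needed its sdg2 arrays to pass, as its wild type replicate 1 lay at 4.57.

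Relatives were compared as a list of 22 further genes of the HSP20 type by locus, of which 10 have a probe set of their own. Of these, 2 rose, 2 fell and 6 did not pass, so 40.0% were called beside 36.6% of all probe sets. AT5G51440, for a mitochondrial small heat shock protein, gave 3.78, 3.78 and 3.71 in wild type and 5.07, 4.72 and 4.41 in sdg2, a rise of 0.98 ± 0.17 (adjusted p = 0.00831). AT4G21870 went from a mean of 9.62 to 10.20, a rise of 0.58 ± 0.13 (adjusted p = 0.0222). That call was lost with a replicate block (adjusted p = 0.0596) and without sdg2 replicate 1 (0.0721) or 2 (0.0758). AT1G54850 fell by 0.79 ± 0.11 and AT3G22530 by 0.53 ± 0.08, from wild type means of 7.18 and 8.86. The mitochondrial gene AT1G52560, with group means of 2.55 and 2.61, and AT5G47600, with 2.19 and 2.18, lay below 3 on all arrays, as ATHSP22.0 and AT1G53540 did. The median change of the 10 relatives was 0.08. Like the members, the relatives held rises, falls and genes at background side by side.

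**Figure D3:**
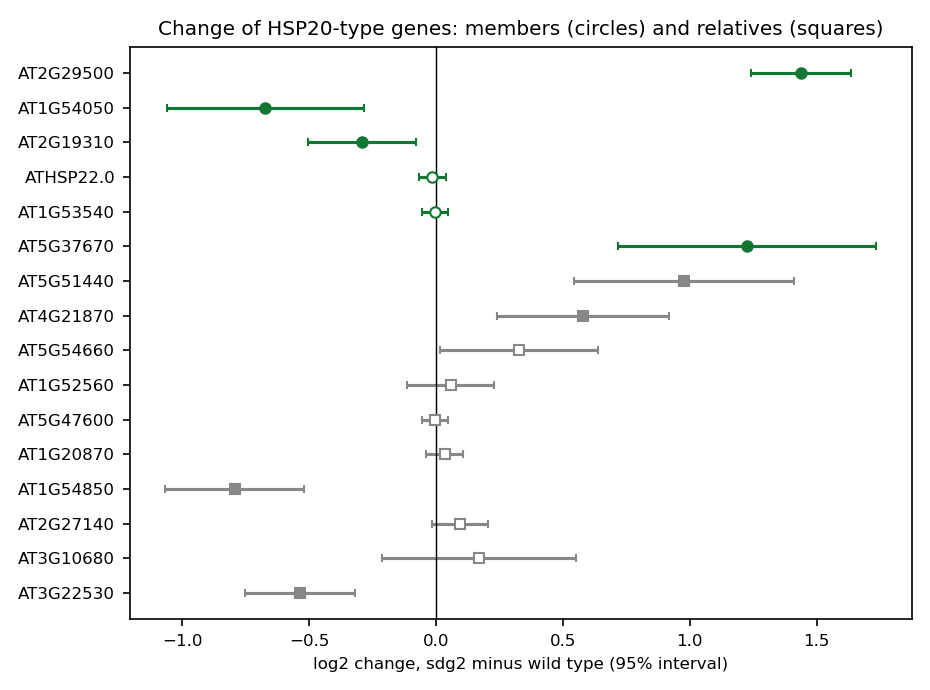
Log2 change with its 95% interval for the 6 members (green circles) and 10 relatives (grey squares), filled where the adjusted p was below 0.05. The largest rise is that of AT2G29500 and the largest fall that of AT1G54850, and the intervals of the genes at background include 0.

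Of the machinery that works with small heat shock proteins, only part was measured. None of the 22 listed heat shock factor genes, which carry the heat signal to the members' promoters, has a named probe set of its own, and they were not analysed here. Of 28 listed HSP70, HSP90 and HSP100 genes 4 were measured, all of the HSP70 family, and 3 rose (75.0% called, beside 36.6% of all probe sets, a share of 4 genes). Hsp70-2, a cytosolic HSP70, rose by 1.63 ± 0.15 (adjusted p = 0.000806) and AT3G09440, another cytosolic HSP70, by 1.11 ± 0.04. AT4G16660 rose by 0.93 ± 0.12, and AT1G11660 differed by 0.14 without passing (adjusted p = 0.0838), although it passed with array weights (0.0326). Cytosolic HSP70 genes are close relatives, and reading of each other's transcripts was not tested.

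Co-chaperones and other genes of the heat response were measured in 8 of 21 listed cases. Of these 2 rose, none fell and 6 did not pass, so 25% were called, below the 36.6% of all probe sets. AT3G07090 rose by 0.47 ± 0.10, a call lost without wild type replicate 1 (adjusted p = 0.0551) or sdg2 replicate 3 (0.0506). Hop2, which links HSP70 to HSP90, rose by 0.22 ± 0.06 (adjusted p = 0.0487), a call lost in 10 of 13 alternatives, among them whichever array was left out (adjusted p of 0.0574 to 0.120) and the replicate block (0.148). The 6 genes that did not pass went both ways, and are given outside the rule for named genes and after their values were seen. Hop3 and HSA32 had differences of -0.18 and -0.50. AT5G48570 had -0.67, Hop1 0.25, Fes1A 0.20 and AT4G02450 0.06.

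**Figure D4:**
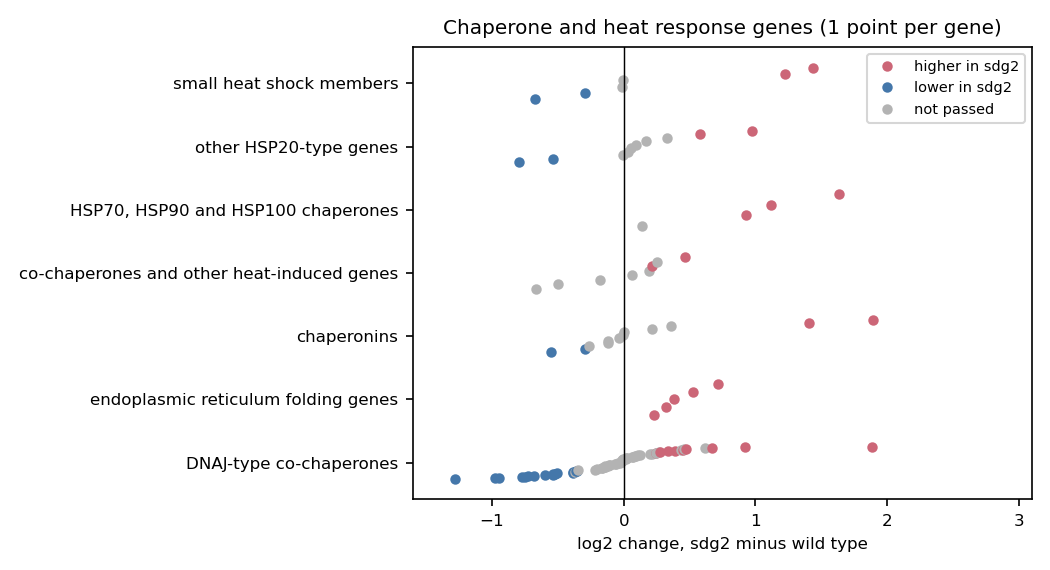
Log2 change of every measured gene of the chaperone and heat response lists, 1 point per gene, red for higher in sdg2, blue for lower and grey for not passed at an adjusted p of 0.05. Small heat shock genes and chaperonins spread to both sides. The 5 measured genes of the endoplasmic reticulum list lie among the rises, 3 of them for transcription factors. So do 3 of the 4 HSP70 genes. Of all probe sets 36.6% were called, 19.0% higher and 17.6% lower.

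In RNA of whole seedlings, fewer cells of a type and less RNA per cell cannot be told apart, and tissue markers moved with the genotype too. Of 5 listed root markers 4 were measured and 3 were called (75.0%, beside 36.6% of all probe sets). EXPA18 and PYK10 were each lower by 0.33, HRGP1 was higher by 0.67 and EXPA7 lay at -0.75 without passing. Whether the HRGP1 probe set also reads related genes was not tested. The call for PYK10 was lost in 6 of 13 alternatives, among them leaving out wild type replicate 2 (adjusted p = 0.120) or 3 (0.122) or sdg2 replicate 1 (0.109) or 3 (0.113). EXPA7 passed in 4 of 13 alternatives, among them the replicate block (adjusted p = 0.0273) and leaving out wild type replicate 3 (0.0363). The summed root signal was 13.35 to 13.56 on the log2 scale in wild type and 13.05 to 13.30 in sdg2. It is almost wholly the signal of PYK10, so it restates that gene and does not show the rise of HRGP1. Of 6 listed leaf markers 3 were measured. LHCB4.2 fell by 0.77, while RCA at 0.09 and LHCB4.1 at 0.08 did not pass (limma, adjusted p = 0.280 and 0.289). The summed leaf signal was 15.70 to 15.81 in wild type and 15.57 to 15.61 in sdg2. Of its 3 genes only LHCB4.2 had a lower mean in sdg2. None of the 8 listed markers of seed maturation, a stage that makes small heat shock proteins, has a named probe set, and these were not analysed here. No defining marker lay at background, and the part of tissue make-up in the members' changes was not tested.

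The genes most like AT2G19310, the member with the highest mean log2 value, were sought among 6257 genes with a mean of at least 5 and a range of at least 50% of its own. AT1G03150 came first with a Pearson r of 0.997 over the 6 arrays, followed by AT5G19030, AT3G03420, AT2G45320 and SIC at 0.983 to 0.985. AT1G03150 had log2 values of 8.53, 8.43 and 8.74 in wild type and of 8.22, 8.26 and 8.34 in sdg2. Its change of -0.29 ± 0.09 did not pass (adjusted p = 0.0566), though it did in 5 of 13 alternatives, among them without wild type replicate 2 (0.0351). These values are a description, since all points share the same 6 arrays and the difference between the genotypes.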

How the data were processed

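The deposited table holds log2 values that the authors made with GCRMA (background adjustment, quantile normalization and probe summary), per the submitters' processing notes. No source used here states its version. Of 22810 probe sets, 64 Affymetrix controls were left out and 22746 tested. Of these 13513 name 1 gene, 503 name several and 8730 are unnamed here. The NCBI gene table of TAIR10.1 matched 13436 of the first kind and was used for names and gene order only. The contrast sdg2 minus wild type was fitted by lmFit and eBayes of limma 3.58.1 under R 4.3.3, with Benjamini-Hochberg adjustment across all 22746. The fit was tested on simulated data.

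The sample titles call the arrays biological replicates, but no label names separate plates or cultures, so the p-values reflect the spread among these samples, which may be technical. No more than 8 values were identical between any 2 arrays. Members and lists were chosen with earlier results of these data known, so lists were given counts and medians and no test. The rule for named genes took all members, up to 2 rises and 2 falls per list, all of a list with 4 or fewer measured genes, and the 5 genes most like the brightest member. Each result was recomputed without each array in turn, with array weights, with a filter on dim probe sets (at least 5 on 3 arrays), with quantile normalization or median centring, with a replicate block, with the trend and robust options, over single-gene probe sets only, and with averaged probe sets per gene. The number of arrays limits the precision. No sequence of the members was used here. Figures were drawn with matplotlib 3.10.9.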

Additional observations from a re-analysis of the deposited data

How the results depend on the processing

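Wild type and sdg2 arrays carry the same replicate numbers, and no label ties a number to a common batch. Deviations of same-numbered arrays correlated at -0.01, 0.07 and 0.06, and those of differently numbered arrays at -0.08 to 0.01. For replicates 2 and 3 the same-numbered values were thus the higher ones, though all were small. The numbers were not taken as pairs in the main fit. With the replicate block, 7865 of all probe sets were called in place of 8327, with 4 of the members as before and 41 in place of 43 of the 103 other chaperone and heat response genes. When only the 13513 probe sets naming 1 gene were tested, 4114 were called. The same probe sets held 4268 calls in the main fit. Leaving out 1 array gave 7368 to 7565 calls over all probe sets, 2 to 3 among the members (2 without sdg2 replicate 3, where both falls were lost) and 32 to 40 among the other genes. Of 30 named genes with a call, 19 kept it in every alternative that gave them a value, among them the members AT2G29500 and AT5G37670. Both of these members passed the filter on dim probe sets only because their sdg2 arrays were high. Of 8 without a call, 4 passed in no alternative, among them ATHSP22.0 and AT1G53540, and the sign of AT1G53540 turned with the setting, at background. Over 490 values, 55 lost a call, 12 gained it and 0 called changes turned their direction. The filter left no value for ATHSP22.0 and AT1G53540. It also left none for AT5G51440 and AT1G44160, which are among the 19 genes that kept their call. Averaging the probe sets of a gene leaves the log2 values of the named genes as they are, since each has a single probe set. The adjusted p of that fit are not given, and it is not among the alternatives counted here. Values near 2.2 are at background, so their intervals limit no change in transcript.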

Other observations

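Chaperonins, which enclose and fold other proteins, and genes of protein folding and its stress response in the endoplasmic reticulum were also measured. Of 22 listed chaperonin genes 12 were measured, 2 rose, 2 fell and 8 did not pass (33.3% called beside 36.6% of all probe sets). The rises were Cpn60beta4, by 1.89 ± 0.11 from a wild type mean of 5.52, and Cpn60beta2, by 1.41 ± 0.03 from 9.09, both for subunits of the plastid chaperonin. Cpn60beta3 differed by 0.36 without passing (adjusted p = 0.105) and was picked after its value was seen. AT3G11830, of the cytosolic chaperonin, fell by 0.55 ± 0.07. AT3G60210 fell by 0.29 ± 0.07, and did not pass when wild type replicate 1 (adjusted p = 0.0910) or 3 (0.0887), or else sdg2 replicate 1 (0.0873) or 2 (0.0707), was left out. Of the 20 listed genes of the endoplasmic reticulum 5 were measured, the calnexin gene AT5G07340, the calreticulin gene CRT1b and BZIP60, BZIP28 and BZIP17, for transcription factors of the stress response there. All 5 rose, with a median of 0.38 (100% called, beside 36.6% of all probe sets, a share of 5 genes). Only 2 of them, AT5G07340 and CRT1b, are genes for chaperones. AT5G07340 rose by 0.72 ± 0.11, while ATHSP22.0 of the same compartment stayed at background. BZIP17 rose by 0.53 ± 0.14, but did not pass after quantile normalization (adjusted p = 0.0525) or when wild type replicate 1 (0.0838) or 2 (0.0795), or else sdg2 replicate 2 (0.0992) or 3 (0.0882), was left out.

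DNAJ-type proteins, which bring clients to HSP70, were called about as often as all probe sets. Of 110 listed genes 64 were measured, 9 rose, 16 fell and 39 did not pass, a share called of 39.1% beside 36.6% of all probe sets and a median change of -0.03. AT1G56300 rose by 1.88 ± 0.10, from 6.89 to 8.77, and AT5G18750 by 0.92 ± 0.18. AT1G44160 fell by 1.28 ± 0.19 and AT5G05750 by 0.98 ± 0.08.

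Within 2 genes to either side of a member, by gene order, 9 genes have a probe set of their own, and they were looked at after the members' values were known. Beside AT2G29500, which rose by 1.44, the next gene AT2G29510 rose by 0.32 ± 0.07. Near AT5G37670, which rose by 1.23, AT5G37690 fell by 1.58 ± 0.07 and ARLA1A differed by 0.21 without passing (adjusted p = 0.0553). AT1G53530, beside the silent AT1G53540, fell by 0.67 ± 0.12. The other 5 had means below 3 in both groups, among them all 3 measured neighbours of AT2G19310.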
